A study of Mus musculus with 32 samples.

Results

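The genes described here are 8 innate immune genes of the mouse from a pair of gene clusters, read by RNA polymerase II (Pol II) profiling of preserved organs. 5 of them (Trim5, Trim12a, Trim12c, Trim30a and Trim30d) lie on chromosome 7 and 3 (Nlrp1a, Nlrp1b and Nlrp1c-ps) on chromosome 11. They were taken by symbol, 8 of the 27179 genes in the table of normalized counts. The set was chosen by measured values, the difference between formalin-fixed, paraffin-embedded (FFPE) and frozen tissue within each organ, so that difference is given below for these genes as a description, with no test. The study held 32 libraries in 16 groups of 2, with 16 of Pol II and 16 of input chromatin, and the table held 8 Pol II profiles: FFPE brain, heart, kidney and liver, and frozen brain, heart, kidney and liver. FFPE tissue had been fixed in 10% formalin and embedded in paraffin, and its chromatin was extracted with heat after the paraffin was removed. Frozen tissue was crosslinked in 1% formaldehyde for 30 min. Strain, genotype, age and sex of the mice, and how many animals gave the organs, are not stated in the labels. It is not given whether a profile is 1 library or the sum of both, so the spread between replicate libraries is unknown and each profile counts as 1 sample.

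Trim genes encode proteins with a RING ubiquitin ligase domain, a B-box and a coiled coil. Some of those in the Trim5 cluster, but not all, also carry a SPRY domain, which in primate TRIM5 binds the capsid of incoming retroviruses. In the mouse the cluster has grown by duplication, and many Trim genes are induced by interferon through response elements in their promoters. Nlrp1 genes encode sensors that assemble inflammasomes, the complexes that activate caspase-1. Nlrp1b senses cleavage by anthrax lethal factor, Nlrp1a can drive inflammasome-dependent cell death when activated by mutation, and Nlrp1c-ps is annotated as a transcribed pseudogene. Pol II on a gene body is a readout of transcription, and in a bulk organ fewer cells of a type and less Pol II per cell cannot be told apart.

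Promoter sequences are shown first because some of the members are close copies of each other, which can bear on how reads are assigned to each. Only promoter windows were aligned, so how alike the counted genes are along their length was not tested. RefSeq promoters (mouse build GRCm38.p6, from 250 bases before to 50 after the start) were found for 7 of the 8 genes, all but Nlrp1c-ps. Each stretch of 100 bases below is on the minus strand, 5′ to 3′, and capitals mark the match to the core of an interferon-stimulated response element, GAAANNGAAA, searched on both strands.
Trim5, chr7:104288141-104288240: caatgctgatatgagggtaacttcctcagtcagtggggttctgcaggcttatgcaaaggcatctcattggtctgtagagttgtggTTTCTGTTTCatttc
Trim12a, chr7:104315471-104315570: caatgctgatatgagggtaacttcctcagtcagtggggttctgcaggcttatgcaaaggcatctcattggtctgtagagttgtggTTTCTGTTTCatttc
Trim12c, chr7:104353364-104353463: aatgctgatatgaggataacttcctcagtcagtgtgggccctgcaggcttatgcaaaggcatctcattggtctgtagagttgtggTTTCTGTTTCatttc
Trim30a, chr7:104465215-104465314: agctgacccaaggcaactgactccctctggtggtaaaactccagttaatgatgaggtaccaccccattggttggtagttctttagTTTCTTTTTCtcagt
Trim30d, chr7:104507876-104507975: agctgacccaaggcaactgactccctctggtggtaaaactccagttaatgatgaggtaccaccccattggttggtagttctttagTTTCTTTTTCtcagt
Nlrp1a, chr11:71144705-71144804: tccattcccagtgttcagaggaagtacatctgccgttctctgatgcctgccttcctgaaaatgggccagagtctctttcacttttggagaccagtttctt
Nlrp1b, chr11:71230734-71230833: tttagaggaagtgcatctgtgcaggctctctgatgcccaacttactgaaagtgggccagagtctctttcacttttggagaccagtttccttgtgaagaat
The stretches of Trim5 and Trim12a are identical, and so are those of Trim30a and Trim30d. For Trim12a the stretch runs 25 bases past the start used for the window, and most of it lies within the annotated interval of the gene. The stretches of Trim5, Nlrp1a and Nlrp1b lie wholly within the annotated intervals of their genes. They are thus upstream of the start used for the window but not of the annotated gene.

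Across the promoter windows, Trim5 and Trim12a were alike at 241 of 241 aligned bases. Trim5 and Trim12c matched at 93.9% of 280 aligned bases and Trim12a and Trim12c at 95% of 260. Trim30a and Trim30d matched at 93.6% of 295 bases, and Nlrp1a and Nlrp1b at 89.7% of 282. Trim5 and the Trim12 genes were less like the Trim30 genes. Those pairs, where enough bases aligned, matched at 63.9% (Trim12c and Trim30a) to 70% (Trim12a and Trim30d). All 5 Trim windows held 1 match to the response element core, and the Nlrp1a and Nlrp1b windows held 0. Trim30a and Nlrp1b each have 2 listed promoters, of which only the one farthest upstream was searched. Being close copies in part, the 5 Trim windows are not independent of each other. Over all 32851 mouse promoters of this length, 1131 (3.44%) held the core. The gamma-activated site TTCNNNGAA was in 0 of the 7 windows and in 8.3% of all promoters. The first base of the match stood 49 bases before the start in Trim5, 29 in Trim12c, 36 in Trim30a and 41 in Trim30d, and 11 bases after it in Trim12a. A match in letters describes the window and says nothing of whether a factor was bound. How reads that map to more than 1 place were counted, and whether strand was used, is not stated in the sources used, so counts of these near copies, and of genes that overlap, are uncertain between neighbours.

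Profiles held 864816 (FFPE liver) to 2178329 (frozen liver) reads in genes, with a median of 16 to 39 per gene, so single genes rest on few reads. The share of reads from mitochondrial genes was 25.6% for FFPE heart, against 12% for frozen heart, and 19.2% for FFPE kidney, against 7.77% for frozen kidney. Their share was 11.8% in FFPE liver, against 10.1% in frozen liver, and 7.73% in both brain profiles. The labelled organs carried their own markers: of 10 markers each, 8 brain, 9 heart, 8 kidney and 10 liver genes were higher in their organ against the other 3 (limma, Benjamini-Hochberg adjusted p under 0.05). The summed RPM (reads scaled to the total in genes) of an organ's own markers was 1010 in FFPE brain and 1060 in frozen brain, 7200 in FFPE heart and 13900 in frozen heart, 1410 in FFPE kidney and 2170 in frozen kidney, and 2960 in FFPE liver and 10800 in frozen liver. Between FFPE and frozen tissue over the 4 organs, limma called 0 of the 10 liver markers (4 at an unadjusted p under 0.05, and 7 with voom weights), 0 of the 10 had a difference above 0, and their median was -0.57. The part of this in the members' differences was not tested. A gene without reads does not sit at the same log2 value in every profile, since 0.5 reads were added before scaling. From this alone, such a gene differs between FFPE and frozen tissue by -0.1 (brain), 0.9 (heart), 0.44 (kidney) and 1.01 (liver). For that reason reads and ratios of depth-scaled reads are given beside log2 values, with exact 95% intervals that cover counting error only. Reads were not set against input chromatin, so all values are Pol II reads and not enrichment over input.

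Trim5 had more depth-scaled Pol II reads in FFPE tissue in each organ. It had 27 reads in FFPE brain, 32 in FFPE heart, 42 in FFPE kidney and 22 in FFPE liver, against 8, 15, 16 and 17 reads in the frozen organs in the same order. Deposited log2 values were 3.76, 5.35, 4.91 and 4.59 in FFPE and 2.16, 3.38, 3.11 and 3.22 in frozen profiles, so the lowest FFPE profile, brain, lay above the highest frozen one, heart. FFPE minus frozen was 1.60, 1.97, 1.81 and 1.37 in brain, heart, kidney and liver, with a mean of 1.69 ± 0.26 (SD over 4 organs). Over the 4 organs the depth-scaled ratio was 3.05 (2.21 to 4.27), and the interval of the ratio lay above 1 within each organ. The spread of this difference over organs was the smallest of the 8 genes.

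Trim12a, the neighbouring copy with the same promoter letters, was also higher in FFPE tissue, but with fewer reads and less evenly. It had 24, 9, 35 and 11 reads in FFPE brain, heart, kidney and liver, against 4, 9, 0 and 1 in the frozen organs. The ratio was 5.61 (1.93 to 22.2) in brain and 1.87 (0.658 to 5.32) in heart, where its interval held 1. In kidney depth-scaled Pol II reads were at least 15.9-fold higher in FFPE tissue with the frozen count of 0 set to 3 reads. The exact lower limit, which also covers counting error in the FFPE reads, was 12.2. In liver the ratio was 22.2 (3.22 to 954) on a single frozen read. On the log2 scale FFPE profiles ran from 3.58 to 4.65 and frozen profiles from -1.94 to 2.67, with no overlap. The mean difference of 3.45 ± 2.44 (SD over 4 organs) contains the kidney value of 6.59, which depends on the reads added to 0 and is no bound. Over the 4 organs the ratio was 7.84 (4.41 to 15).

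Nlrp1c-ps, the pseudogene, was higher in FFPE tissue in each organ too. It had 40, 16, 24 and 18 reads in FFPE brain, heart, kidney and liver, against 8, 3, 4 and 0 reads in the frozen organs. FFPE log2 values were close together, 4.32, 4.37, 4.12 and 4.31, while frozen values were 2.16, 1.23, 1.23 and -1.91, and no profiles overlapped. The ratio was 4.68 (2.16 to 11.6) in brain, 9.98 (2.86 to 53.5) in heart and 8.15 (2.8 to 32.3) in kidney. In liver depth-scaled Pol II reads were at least 12.1-fold higher in FFPE tissue with the frozen count of 0 set to 3 reads (exact lower limit 8.86). Over the 4 organs the ratio was 9.08 (5.24 to 16.8), and the mean log2 difference was 3.60 ± 1.80 (SD over 4 organs), which includes the liver value of 6.22 set by the added reads. The mitochondrial share was also higher in FFPE heart and kidney, and equal in the brain profiles. In brain, where each preservation is a single profile, FFPE over frozen ratios were Trim5 3.16, Trim12a 5.61 and Nlrp1c-ps 4.68. The part of the mitochondrial share in the members' differences was not tested.

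**Figure D1:**
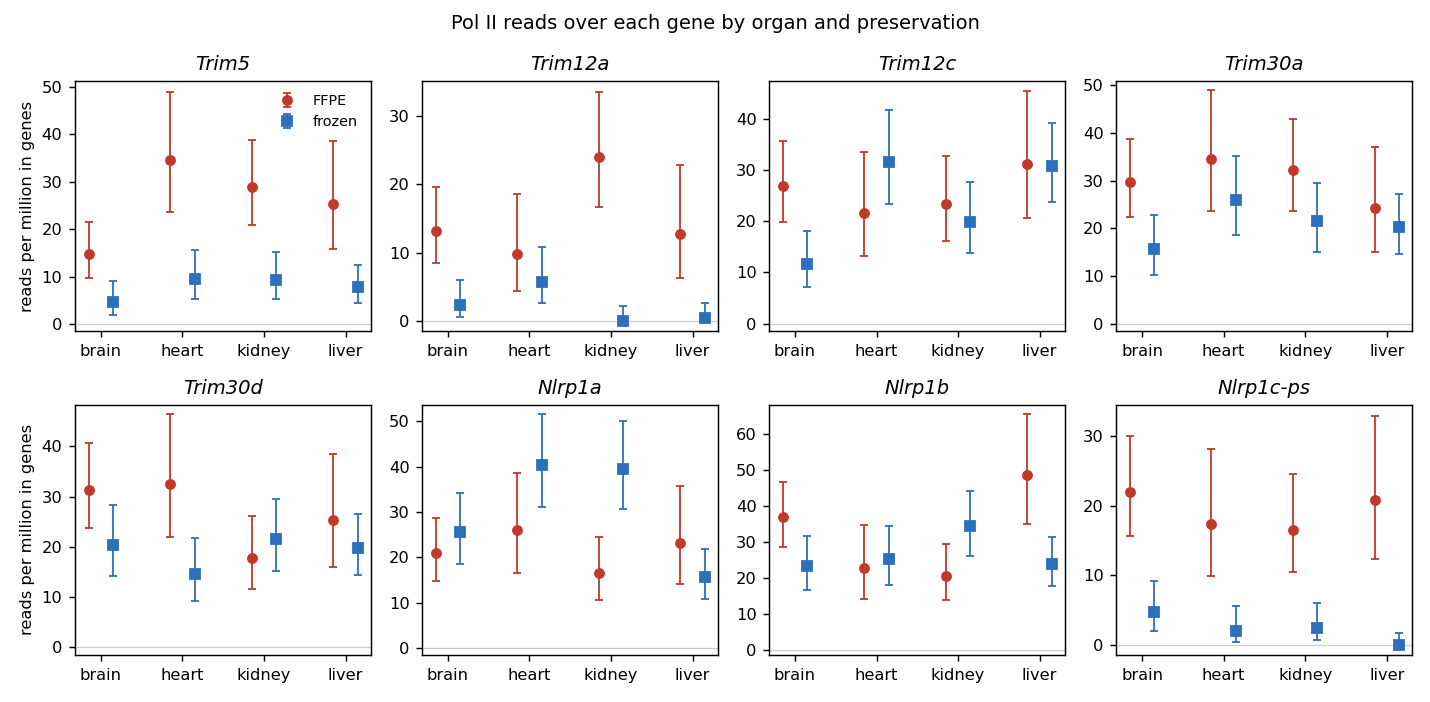
RPM, Pol II reads scaled to the reads in genes (y axis), for each of the 8 genes by organ (x axis), with FFPE profiles as circles and frozen profiles as squares and bars for the exact 95% Poisson interval of the count. Trim5, Trim12a and Nlrp1c-ps lie higher in FFPE than in frozen profiles in all 4 organs, and on this scale, which carries no scaling factor, so does Trim30a, while the other 4 genes are higher in some organs and lower in others.

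Trim12c, the remaining close copy in the Trim5 group, followed neither direction throughout. This gene, whose protein has been linked to TRAF6-dependent interferon signalling in the mouse, had 49, 20, 34 and 27 reads in FFPE brain, heart, kidney and liver, against 20, 50, 34 and 67 in the frozen organs. FFPE minus frozen on the log2 scale was 1.18 for brain, -0.40 for heart, 0.44 for kidney and -0.29 for liver, and in brain alone the interval of the ratio lay off 1 (2.29, 1.34 to 4.07). Over the 4 organs the ratio was 1.06 (0.835 to 1.34). Its mean log2 difference was 0.23 ± 0.73 (SD over 4 organs), and -0.08 without brain.

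Trim30a, whose protein restrains NF-kB signalling downstream of Toll-like receptors, had 54, 32, 47 and 21 reads in FFPE brain, heart, kidney and liver, against 27, 41, 37 and 44 in the frozen organs. Its log2 differences were 0.89, 0.55, 0.78 and -0.04, and its ratio over the 4 organs was 1.44 (1.14 to 1.81). Trim30d, a further copy of that gene, had 57, 30, 26 and 22 reads in FFPE brain, heart, kidney and liver, against 35, 23, 37 and 43 in the frozen organs. Its log2 differences were 0.60, 1.28, -0.06 and 0.06, and the ratio over organs was 1.36 (1.06 to 1.74). Both Trim30 genes had values in FFPE that overlapped the frozen ones, and their mean differences of 0.55 ± 0.42 and 0.47 ± 0.61 (SD over 4 organs) were smaller than that of Trim5, 1.69.

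The protein-coding Nlrp1 genes did not share the pattern of the pseudogene. Nlrp1a had 38, 24, 24 and 20 reads in FFPE brain, heart, kidney and liver, against 44, 64, 68 and 34 in the frozen organs, with log2 differences of -0.31, -0.49, -1.04 and 0.26. Its ratio was 0.48 (0.288 to 0.774) in kidney and 0.702 (0.55 to 0.89) over the 4 organs, and it was the single gene of the 8 with a mean difference below 0, -0.39 ± 0.54 (SD over 4 organs). Nlrp1b had 67, 21, 30 and 42 reads in FFPE brain, heart, kidney and liver, against 40, 40, 59 and 52 in the frozen organs. Its log2 differences were 0.64, -0.01, -0.52 and 0.71, and its ratio over organs was 1.16 (0.938 to 1.44). FFPE and frozen values of both genes overlapped.

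Among the 8 genes, 3 (Trim5, Trim12a and Nlrp1c-ps) were higher in FFPE tissue in each organ, against 8.12% of the 26758 genes tested. With mitochondrial genes and scaling factors left out the count was 4, and in RPM Trim30a was also higher in each organ, with 24.3 in FFPE liver and 20.2 in frozen liver. The same 3 had each FFPE profile above each frozen one, against 1.95% of genes. Trim5 and Nlrp1c-ps were at least 2-fold higher in all 4 organs on the log2 scale, against 0.542% of genes. Among the 11465 genes with mean levels in the range of the 8, 31 (0.270%) were at least 2-fold higher in each organ and 217 (1.89%) had no overlap. Since the 8 were chosen on this difference, nothing is read from these counts. Summed over the 8 genes there were 985 FFPE and 944 frozen reads, a ratio of 1.45 (1.32 to 1.59), and the organs ranged from 1.4 in kidney to 1.79 in brain.

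How reads were divided within a cluster needs no scaling between profiles. Nlrp1c-ps held 98 of the 364 FFPE reads of the 3 Nlrp1 genes, 26.9% (22.4 to 31.8, exact binomial interval), against 15 of 416 frozen reads, 3.61% (2.03 to 5.88). Its share was 27.6, 26.2, 30.8 and 22.5% in FFPE brain, heart, kidney and liver, against 8.7, 2.8 and 3.05% in frozen brain, heart and kidney. In frozen liver it held 0 of 86 reads, which allows a share of up to 3.49% when 0 is set to 3 reads, and up to 4.2% by the exact interval used for the other shares. The lowest FFPE share was above the highest frozen share.

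Within the 5 Trim genes, Trim5 held 19.8% of the FFPE reads (16.7 to 23.2) and 10.6% of the frozen reads (8.11 to 13.6). Trim12a held 12.7% (10.2 to 15.6) of the FFPE and 2.65% (1.46 to 4.41) of the frozen reads. In kidney, Trim12a held 19% of the FFPE reads of the cluster genes, against 0 of 124 frozen reads, which allows up to 2.42% when 0 is set to 3 reads and up to 2.93% by the exact interval. In heart it held 7.32% of FFPE reads and 6.52% of frozen reads. Trim5 and Trim12a together held 24.2, 33.3, 41.8 and 32% in FFPE brain, heart, kidney and liver, against 12.8, 17.4, 12.9 and 10.5% in the frozen organs. Since these shares are made from the same reads as the ratios, they describe the pattern again and are no separate evidence of it.

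**Figure D2:**
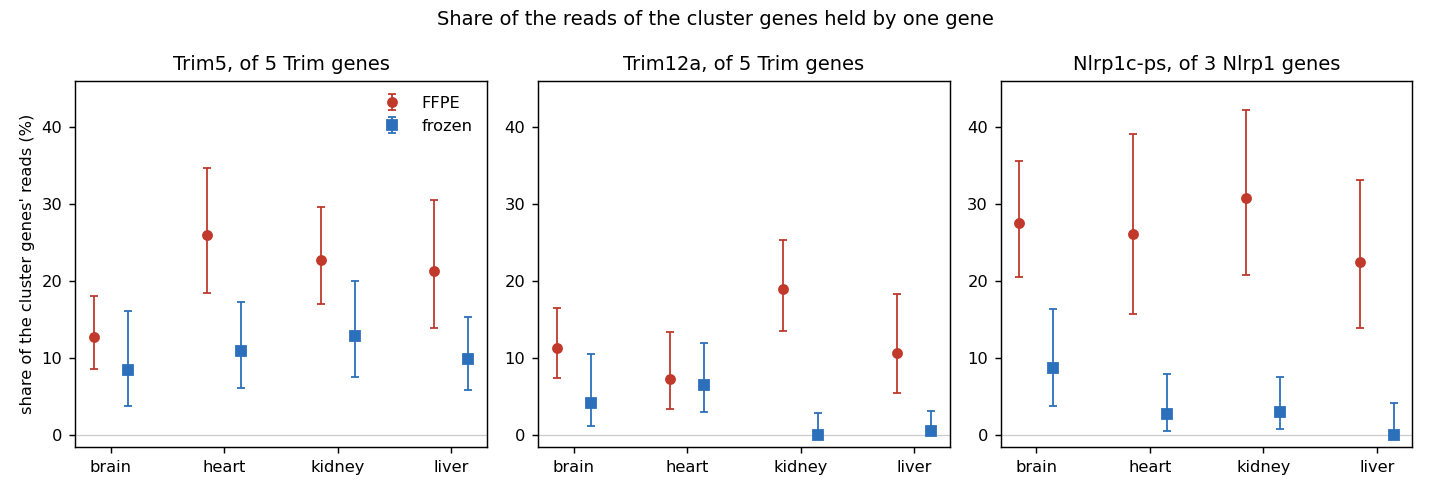
Share of the reads of the cluster genes (y axis, %) held by Trim5 and Trim12a among the 5 Trim genes and by Nlrp1c-ps among the 3 Nlrp1 genes, by organ (x axis), with FFPE as circles, frozen as squares and exact 95% binomial intervals as bars. Nlrp1c-ps holds 22.5 to 30.8% in FFPE profiles and 0 to 8.7% in frozen profiles.

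The 3 genes higher in FFPE tissue lie side by side on chromosome 7 and at the edge of the cluster on chromosome 11 (coordinates of GRCm38.p6). Trim5 spans chr7:104263386-104288254 and Trim12a chr7:104299893-104315558, with 11638 bases between them. Trim12c (chr7:104338754-104353358), Trim30a (chr7:104409025-104465193) and Trim30d (chr7:104470014-104507853) follow, with Trim34b, Trim30b and Trim30c between them. On chromosome 11, Nlrp1a spans chr11:71091197-71144969, Nlrp1b chr11:71152574-71242514 and Nlrp1c-ps chr11:71242430-71285232. The intervals of Nlrp1b and Nlrp1c-ps overlap by 85 bases, and the next annotated gene past the pseudogene, 9230020A06Rik, begins 231303 bases farther on.

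Genes between the members were not in the set, and FFPE against frozen was tested on them in the fit across all genes. In that fit 0.153% of 26758 genes were called higher in FFPE tissue and 0.422% lower, and 2494 had an unadjusted p under 0.05 by limma. Unadjusted counts between FFPE and frozen tissue, for neighbours and for each list, are to be read beside that count. The members were chosen with results for this difference known, so the genes left around them are a conditioned set. Their adjusted p-values, and those of the other neighbours within 500 kb, are to be read with that limit. The genes between the members are named here for their position, after their values were seen. Gm15133, a predicted gene that overlaps Trim12a by 528 bases, had 8, 7, 15 and 6 reads in FFPE brain, heart, kidney and liver, against 3, 4, 0 and 0 in the frozen organs. Its FFPE values were the higher ones in each organ, and frozen kidney and liver, where Trim12a had 0 reads and 1 read, had none. Its depth-scaled ratio over the 4 organs was 7.15 (3.14 to 19). The log2 difference was 3.23 ± 0.81 (SE) with an adjusted p of 0.0721 by limma, and over the alternatives tried the adjusted p ran from 0.0336 to 0.355. That difference contains the kidney value of 5.4 and the liver value of 4.71, which depend on the reads added to 0. Scaled to the 1478 olfactory and vomeronasal receptor genes the call was made, at 3.16. How many reads of Gm15133 lie in the stretch shared with Trim12a was not tested.

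Trim30b had 84 FFPE and 65 frozen reads, a difference of 0.90 ± 0.40 (SE) with an adjusted p of 0.474. Its ratio was 1.8 (1.28 to 2.52), and each of its FFPE profiles, 3.65 to 4.72 on the log2 scale, lay above each frozen one, 2.95 to 3.55. Trim34b had 62 FFPE and 65 frozen reads (0.25 ± 0.48, adjusted p 0.92), a difference whose sign turned without brain, to -0.16. Trim30c had 46 FFPE and 94 frozen reads (-0.56 ± 0.43, adjusted p 0.748). On the Trim5 side, Trim34a ends 1141 bases from Trim5 and had 124 FFPE and 125 frozen reads (0.46 ± 0.33, adjusted p 0.719), and Trim6 had 129 and 168 (0.30 ± 0.35, adjusted p 0.853). None of these 5 Trim genes passed limma's test, and their ratios ran from 0.68 in Trim30c to 1.8 in Trim30b.

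Within 500 kb, 61 genes around the Trim5 cluster and 24 around the Nlrp1 cluster were tested, and limma called 0 in each (4 and 2 at an unadjusted p under 0.05, and 0 in each with voom weights). Their median FFPE minus frozen differences were -0.20 and -0.04, beside -0.01 over all genes, and 23 and 12 of them were above 0. Around the Trim5 cluster Olfr663, an olfactory receptor gene, stood at -1.82 ± 0.80 (SE; adjusted p 0.463) and Olfr67 at 1.43 ± 0.68 (adjusted p 0.525). Around the Nlrp1 cluster Spag7 stood at -0.68 ± 0.22 (adjusted p 0.236) and Pfn1, which encodes the actin-binding protein profilin, at -0.62 ± 0.23 (adjusted p 0.34). Of the genes flanking Nlrp1a, Mis12 of the kinetochore was at 0.02, Derl2 of protein degradation in the endoplasmic reticulum at -0.28 and 6330403K07Rik at -0.24. Scaled to the receptor genes Mis12 was at -0.06. Past Nlrp1c-ps, 9230020A06Rik had 61 FFPE and 65 frozen reads (0.32 ± 0.45, adjusted p 0.883).

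**Figure D3:**
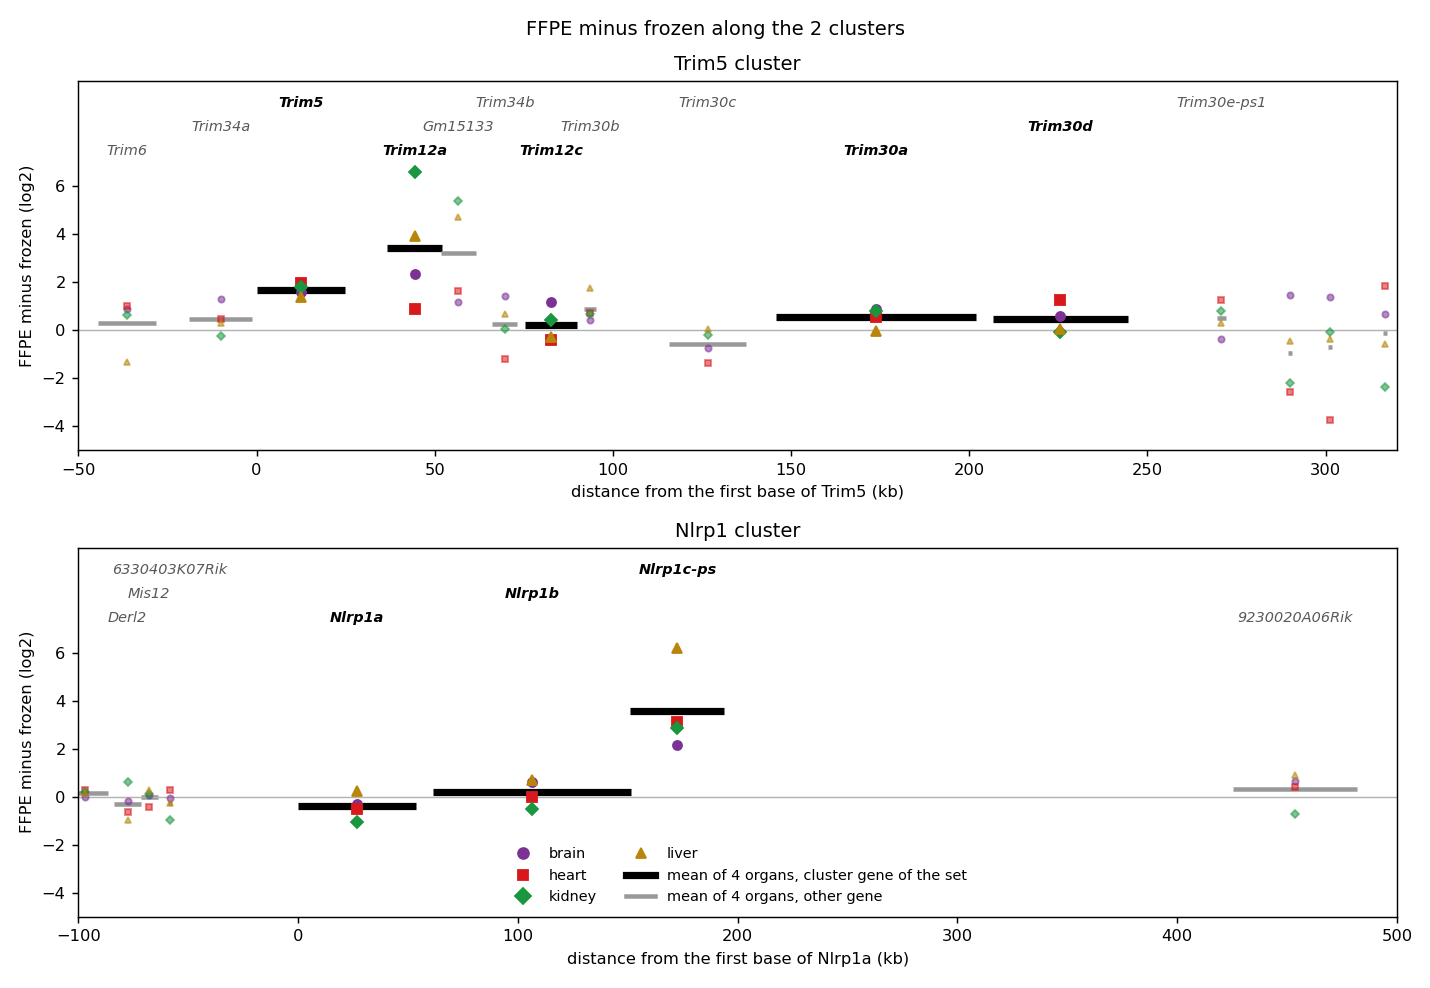
FFPE minus frozen on the log2 scale (y axis) against distance from the first base of Trim5 or Nlrp1a in kb (x axis). Black bars span the 8 genes and grey bars other genes, at the mean over 4 organs, with a point per organ, and 4 grey genes of the window, 3 at the right end of the upper panel and 1 at the left end of the lower, carry no name. Trim5 (1.69), Trim12a (3.45), Gm15133 (3.23) and Nlrp1c-ps (3.60) have the highest means shown.

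Levels between organs were not used in the choice of the genes. Each organ's FFPE and frozen profile was tested against the 6 of the other organs, in a fit with preservation as a term. The spread in this fit comes from how the FFPE minus frozen difference varied over organs, shared in part over all genes. The members were chosen on that difference, so their SEs, 0.86 for Trim12a and 0.74 for Nlrp1c-ps, are not free of the choice. The calls among the 8 are thus no test independent of it. None of the 8 was called in any organ by limma. The share of all genes called was 7.46% for brain, 5.24% for heart, 1.38% for kidney and 7.91% for liver. With voom weights the count was also 0 in each organ. At an unadjusted p under 0.05 by limma, 4886 of the 26758 genes passed for brain, 4830 for heart, 2848 for kidney and 5167 for liver. Of the 8 members there was 1 for brain, 1 for heart, 0 for kidney and 1 for liver, no larger a share than that of all genes. The members named next are thus a description and not an organ result.

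The one in brain was Trim5, at 2.96 in brain and 4.09 in the other organs on the log2 scale, a difference of -1.13 ± 0.43 (SE; adjusted p 0.132, 0.0761 to 0.661 over the alternatives). It was low in brain in both FFPE tissue, 3.76, and frozen tissue, 2.16, the lowest value of each preservation. In heart it was Nlrp1a, at 5.19 in heart and 4.46 in the other organs, 0.73 ± 0.34 (adjusted p 0.255, 0.1 to 0.587 over the alternatives). It had the highest value of its preservation there, 4.94 in FFPE heart and 5.44 in frozen heart.

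In liver it was Nlrp1c-ps, at 1.20 in liver and 2.91 in the other organs, -1.71 ± 0.74 (adjusted p 0.193, 0.0175 to 0.991 over the alternatives). That difference rests on frozen liver with 0 reads: the FFPE liver value, 4.31, lay within the other FFPE values, 4.12 to 4.37. Without the FFPE liver profile, which leaves frozen liver as its organ's single sample, assumed to vary like the others, it was called at -3.45 ± 0.99 (adjusted p 0.0175). Trim12c was at 4.02 in brain and 4.77 in the other organs, -0.75 ± 0.36 (adjusted p 0.281).

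As means of FFPE and frozen values on the log2 scale, Trim5 was ordered heart (4.36), kidney (4.01), liver (3.91) and brain (2.96), with SDs of 0.97 to 1.39. Each SD is taken over an organ's FFPE and frozen value, so it holds the preservation difference and is no spread between replicates. Trim12a was ordered heart (3.12), brain (2.42), liver (1.65) and kidney (1.36), and Nlrp1c-ps brain (3.24), heart (2.80), kidney (2.68) and liver (1.20), both with SDs above 1.5 in all organs but Trim12a in heart (0.64). The remaining members kept closer levels. Trim12c ran from 5.03 in liver to 4.02 in brain, Trim30a from 5.07 in heart to 4.30 in brain, and Trim30d from 4.62 in heart to 4.26 in kidney. Nlrp1a ran from 5.19 in heart to 4.33 in liver, and Nlrp1b from 5.16 in liver to 4.70 in kidney. Of 24 neighbouring pairs in these orders, 1 differed by more than the larger SD of the pair, Trim12c in heart (4.88) and kidney (4.39). Since these SDs hold the difference the genes were chosen on, the count does not say whether the orders exceed the spread between replicates. For Trim12a the order follows the frozen profiles with few reads: its FFPE heart value, 3.58, was the lowest of its FFPE values.

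**Figure D4:**
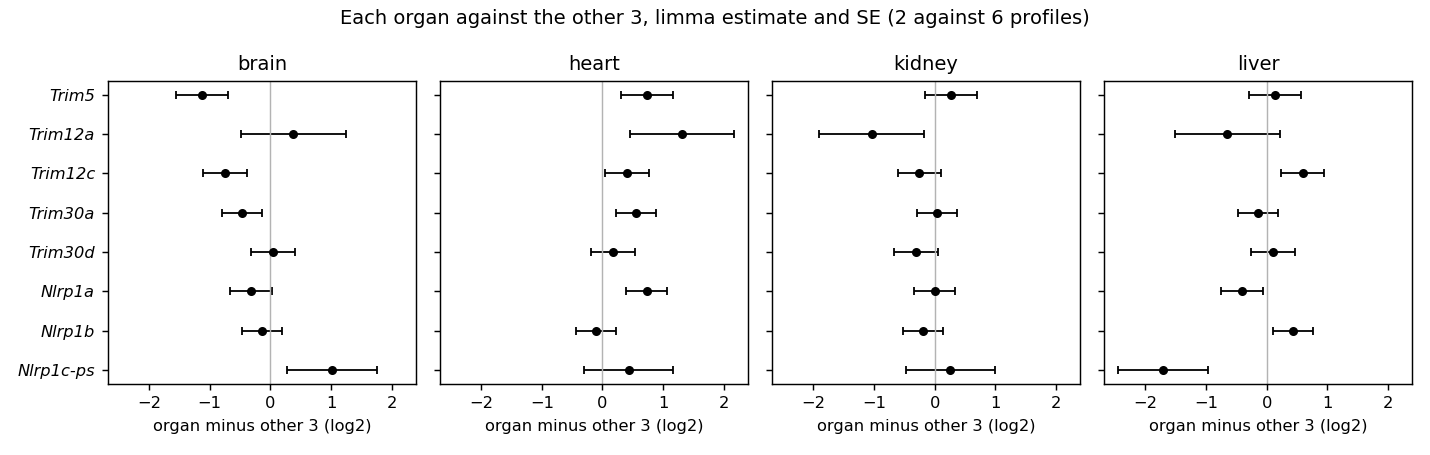
Difference of each organ from the other 3 on the log2 scale (x axis) for the 8 genes (y axis), as limma estimate with its SE, for 2 against 6 profiles. Trim12a and Nlrp1c-ps, the genes with fewest reads, have the widest bars, and none of the 32 differences passed an adjusted p of 0.05.

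Interferon-stimulated genes, the class that interferon response elements serve, were read from a list of 34. Between FFPE and frozen tissue limma called 0 of them (2 at an unadjusted p under 0.05, 0 with voom weights), and their median difference was 0, beside -0.01 over all genes. Ifit3, an antiviral RNA-binding protein gene, had 160 FFPE and 106 frozen reads, 1.01 ± 0.32 (SE; adjusted p 0.227). Apobec3, a cytidine deaminase gene that restricts retroviruses, had 123 and 107 reads, 0.77 ± 0.34 (adjusted p 0.471). The next by p went the other way: Ifi35 with 102 and 230 reads, -0.55 ± 0.36 (adjusted p 0.69), and Ddx58 with 302 and 558, -0.31 ± 0.21 (adjusted p 0.697). Between organs 6 of the 34 were lower in brain than in the other organs (median -0.70) and 4 were higher in liver (median 0.29), with 0 in heart and kidney (8 and 0 at an unadjusted p under 0.05, and 3 and 0 with voom weights).

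Of 26 inflammasome and NLR genes other than the members, limma called 0 between FFPE and frozen tissue (1 at an unadjusted p under 0.05, 0 with voom weights), with a median of 0.13. Nlrc5, the regulator of MHC class I genes, stood at 0.51 ± 0.23 (SE; adjusted p 0.481). Naip1, which encodes a sensor of bacterial secretion system needles, stood at -0.53 ± 0.27 (adjusted p 0.577), and Nlrp12 at -0.55 ± 0.28 (adjusted p 0.577). Between organs, 2 of these were lower in brain, 1 was higher and 2 were lower in heart, 2 were higher and 1 lower in liver, and 0 were called in kidney (3 at an unadjusted p under 0.05). For 13 germline NLR genes, which are active mainly in oocytes, 0 were called (1 unadjusted, 0 with voom weights) with a median of -0.13.

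Of 64 other Trim genes, 0 were called between FFPE and frozen tissue (5 at an unadjusted p under 0.05, 0 with voom weights), and the median was 0.04, with 32 above 0. Trim43c had 79 FFPE and 52 frozen reads (1.11 ± 0.44, SE; adjusted p 0.384), Trim40 had 82 and 52 (1.06 ± 0.45, adjusted p 0.447), and Trim65, whose protein ubiquitinates the RNA sensor MDA5, had 332 and 713 (-0.51 ± 0.20, adjusted p 0.385). Between organs the same list held 5 genes higher and 4 lower in brain, 7 higher in heart, 1 higher and 1 lower in kidney, and 2 higher and 6 lower in liver.

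Markers of immune cells, which are known to express several of these genes, are given beside the differences. Of 14 macrophage, 14 lymphocyte and 8 neutrophil markers, limma called 0 in each list between FFPE and frozen tissue (1, 2 and 0 at an unadjusted p under 0.05, and 0 in each with voom weights), with medians of 0, 0.14 and 0.14. Summed macrophage markers ran from 281 to 386 RPM in FFPE and from 292 to 388 in frozen profiles. Lymphocyte markers ran from 193 to 219 in FFPE and from 136 to 255 in frozen profiles, and neutrophil markers from 53.5 to 76.3 in FFPE and from 62.4 to 69.7 in frozen profiles. No marker was at 0 in all profiles, and the ranges over organs overlapped in all 3 lists. Within liver all 3 sums in RPM were higher in FFPE tissue: macrophage 386 in FFPE and 292 in frozen liver, lymphocyte 219 and 136, and neutrophil 76.3 and 62.4. Within kidney all 3 were lower in FFPE tissue: macrophage 295 in FFPE and 388 in frozen kidney, lymphocyte 206 and 255, and neutrophil 53.5 and 66.8. RPM carries no scaling factor, while the members' ratios do. The factors were 1.08 for FFPE and 0.862 for frozen liver, and 0.967 for FFPE and 1.11 for frozen kidney. Dividing by them brings the FFPE and frozen sums of each list closer together, and the order of the neutrophil sums in liver does not hold. The part of these markers in the members' differences was not tested.

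The genes whose values over the 8 profiles were most like the mean profile of the 8 members, by Pearson's r after centring, were BC018473 (0.982), Ubxn2b (0.979), Krtap3-3 (0.974), Znf41-ps (0.971) and H2-Aa (0.963). They were the top 5 of 22908 genes searched, a description over profiles that share depth and preservation. The mean profile is weighted to Trim12a and Nlrp1c-ps, whose FFPE minus frozen means were 3.45 and 3.60. Their values in frozen kidney (Trim12a, -1.94) and frozen liver (Nlrp1c-ps, -1.91) were set by the reads added to 0. Nlrp1a, at -0.39, went the other way, so the likeness is not to each of the 8. BC018473, on chromosome 11, had 103 FFPE and 8 frozen reads. Znf41-ps, a pseudogene on chromosome 4, had 433 and 353, and Krtap3-3, a hair keratin-associated protein gene on chromosome 11, had 37 and 13. H2-Aa, a chain of MHC class II on antigen-presenting cells, had 69 FFPE and 57 frozen reads.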

How the data were processed

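The table holds log2 values of Pol II reads per gene, deposited by the authors with 1 column per organ and preservation. Per the submitters' processing notes, Bowtie2, featureCounts, limma and the mouse build mm10 were used, and versions, counted length and strand are not stated in the sources used. Whole reads were recovered from the deposited log2 values: all (100%) came out whole within 1e-06, with 0.5 reads added. Genes at log2 0 or above in at least 2 profiles were kept (26758 of 27179). limma 3.58.1 in R 4.3.3 had terms for organ and preservation and a mean-variance trend (residual df 3, prior df 19.4), with Benjamini-Hochberg adjustment at 0.05. p-values measure the spread between profiles. The script was tested on simulated data. Columns carry no replicate numbers. 1275 genes have no symbol, and 25275 IDs (93%) matched RefSeq.

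The members and lists were chosen with earlier results of these data known. Named genes are up to 4 of each list with the smallest p, the 3 nearest neighbours on each side with at least 50 reads, and the 5 most alike in profile, and genes between members were named after their values were seen. Alternatives were other scalings, filters, added reads, voom weights and each profile left out. Input libraries were not used here.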

Additional observations from a re-analysis of the deposited data

How the results depend on the processing

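No paired analysis was possible because the columns carry no replicate numbers: libraries could not be paired, while the organ term sets FFPE beside frozen tissue within each organ. With each profile left out in turn, genes called ran from 226 (without frozen brain) to 3234 (without FFPE liver) in brain, beside 1995 with all profiles, from 232 (without frozen heart) to 2283 (without frozen liver) in heart, beside 1401, from 20 (without frozen kidney) to 887 (without FFPE liver) in kidney, beside 368, and from 773 (without frozen liver) to 2869 (without FFPE liver) in liver, beside 2117. Between FFPE and frozen tissue they ran from 23 (without FFPE heart) to 112 (without frozen liver), beside 154. The members called stayed at 0 in brain, heart and kidney and ran from 0 to 1 in liver, with Nlrp1c-ps called without FFPE liver. Quantile normalization gave 676 and voom weights 694 genes in kidney, and between FFPE and frozen tissue added reads in proportion to depth gave 100 genes and voom weights 317. Scaled to receptor genes, 1 cluster neighbour was called, Gm15133. Members higher in FFPE tissue in each organ were 3, and 4 with mitochondrial genes and scaling factors left out, without kidney or without liver. Without heart and kidney, an alternative chosen after seeing the data, 5 members were higher in FFPE tissue in each organ left (Trim5, Trim12a, Trim30d, Nlrp1b and Nlrp1c-ps).

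The signs of 5 genes near the clusters turned, none of them called. Olfr649 (0.06) was at -0.01 with quantile normalization and scaled to receptor genes and at 0 with voom weights, and Mis12 (0.02) was at -0.06 scaled to receptor genes. With profiles left out, Olfr649 ran from -0.24 (without brain) to 0.29, Olfr652 (-0.70) from -1.39 to 0.31 (without heart), 6330403K07Rik (-0.24) from -0.42 to 0 (without kidney), Mis12 from -0.08 (without liver) to 0.16, and Trim34b (0.25) from -0.16 (without brain) to 0.72. The cause was not tested. The median FFPE minus frozen difference of all genes was -0.01, and 0.11 with mitochondrial genes and scaling factors left out together, a shift that also lies in the members' values under that setting. The mean difference of Trim12c (0.23) was at -0.08 without brain, and the other 7 members kept the sign of theirs under each alternative tried, with Trim5 at 1.49 to 1.80, Trim12a at 2.40 to 4.30 and Nlrp1c-ps at 2.73 to 4.19. Depth limits the low genes: frozen profiles held 56 reads of Trim5, 14 of Trim12a and 15 of Nlrp1c-ps in all.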
